A study of Homo sapiens with 11 samples.

Results

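The NRF2 antioxidant genes examined here were 36 named genes: the transcription factor NRF2 itself (gene symbol NFE2L2), its inhibitor KEAP1, and 34 genes known or reported as NRF2 targets. They were chosen by gene symbol. All 36 were listed among the 21316 genes of the A549 table and 35 among the 20915 genes of the H1299 table, where ALDH3A1 had no row. A549 and H1299 are established human lung cancer cell lines. Each line gave 3 poly(A) RNA-seq libraries: 2 from cells carrying a short hairpin RNA against METTL3 (shMETTL3, numbered 1 and 2) and 1 from cells carrying a hairpin against GFP (shGFP). All were grown in DMEM with 10% FBS and antibiotics. Whether the numbers mark different hairpins or repeats, and whether the cultures were separate, is not in the labels, so the p-values below measure only the spread between these libraries, which may be technical.

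In unstressed cells, KEAP1 holds NRF2 and hands it to a ubiquitin ligase, so that NRF2 is degraded. Oxidants and electrophiles modify KEAP1, NRF2 accumulates, pairs with small MAF proteins and binds antioxidant response elements in its target genes. Many lung cancers carry mutations that keep NRF2 active, and A549 is known for a mutated KEAP1, whereas H1299 is known as a KEAP1 wild-type line. METTL3 is the catalytic subunit of the enzyme complex that writes N6-methyladenosine (m6A) on mRNA.

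METTL3 checked the labels. It stood at 231 and 232 in the A549 shMETTL3 libraries, against 557 in A549 shGFP, and at 123 and 100.2 in the H1299 shMETTL3 libraries, against 271 in H1299 shGFP. These are deposited values, a normalised signal per gene that is not corrected for gene length, so that levels of different genes are not compared. In A549 each value was a whole number of reads divided by 1 factor per library, and the libraries held 14447379 (shMETTL3 1), 16504759 (shMETTL3 2) and 19966206 (shGFP) reads. The read depth of H1299 was not recovered. The rRNA gene RNA45S5 took 20.5 to 25.4% of the H1299 totals and 0.208 to 0.284% of the A549 totals, and rRNA genes were therefore left out of the totals when the lines were compared. Of 10 lung epithelial markers, KRT19 was at 0 in all 3 H1299 libraries and EPCAM at 0.4 or below there, but KRT18 stood at 1075 to 1419 and ABCA3 at 647 to 830. In A549, KRT18 stood at 8957 to 11824 and ABCA3 at 405 to 566, while NKX2-1 and SFTPC were at 0.36 or below. The leukocyte marker PTPRC was at 0.7 or below in every library.

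Most of the NRF2 genes were far higher in A549 than in H1299. Of the 35 members listed in both tables, 29 were at least 2-fold higher in every A549 library than in every H1299 library, after each value was divided by its library's total without rRNA genes. The background was 15% of 14876 genes at or above the minimum level of 1 on that scale, which sets each total to 1000000. In such bulk RNA, fewer cells of a type and less RNA per cell cannot be told apart. None of the 35 was at least 2-fold lower, against a background of 12.7%. GPX2, AKR1B10, AKR1C1, AKR1C2 and AKR1C3 averaged below 1 in H1299 and passed the minimum only through A549. With a minimum of 1 in each line, a choice made after seeing the data, 24 of 30 members were past the rule, against a background of 11.2% of 13244 genes. The tables were normalised separately, so this is a rule of size with no test. The median log2 ratio of A549 shGFP to H1299 shGFP was 2.57 over those 30 members and 0.05 over the 13244 genes (2.65 over 35 members and 0.08 over 14876 genes with the minimum over all libraries). On the deposited values, 32 members were higher in A549 by the rule, against a background of 22.9%. Of all genes passing it in either direction, 74.6% were higher in A549, against 54.2% on the scale without rRNA genes. With TMM scaling, 27 members were higher, against a background of 13.5%, and 48.2% of all genes passing in either direction were higher in A549. The members together made up 4.68, 4.05 and 4.51% of the A549 totals (shMETTL3 1, shMETTL3 2 and shGFP), and 0.363, 0.449 and 0.444% of the H1299 totals. Ferritin was a large part of this sum, and without FTL and FTH1 the shares were 2.78, 2.01 and 2.54% in A549 and 0.205, 0.225 and 0.233% in H1299.

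**Figure D1:**
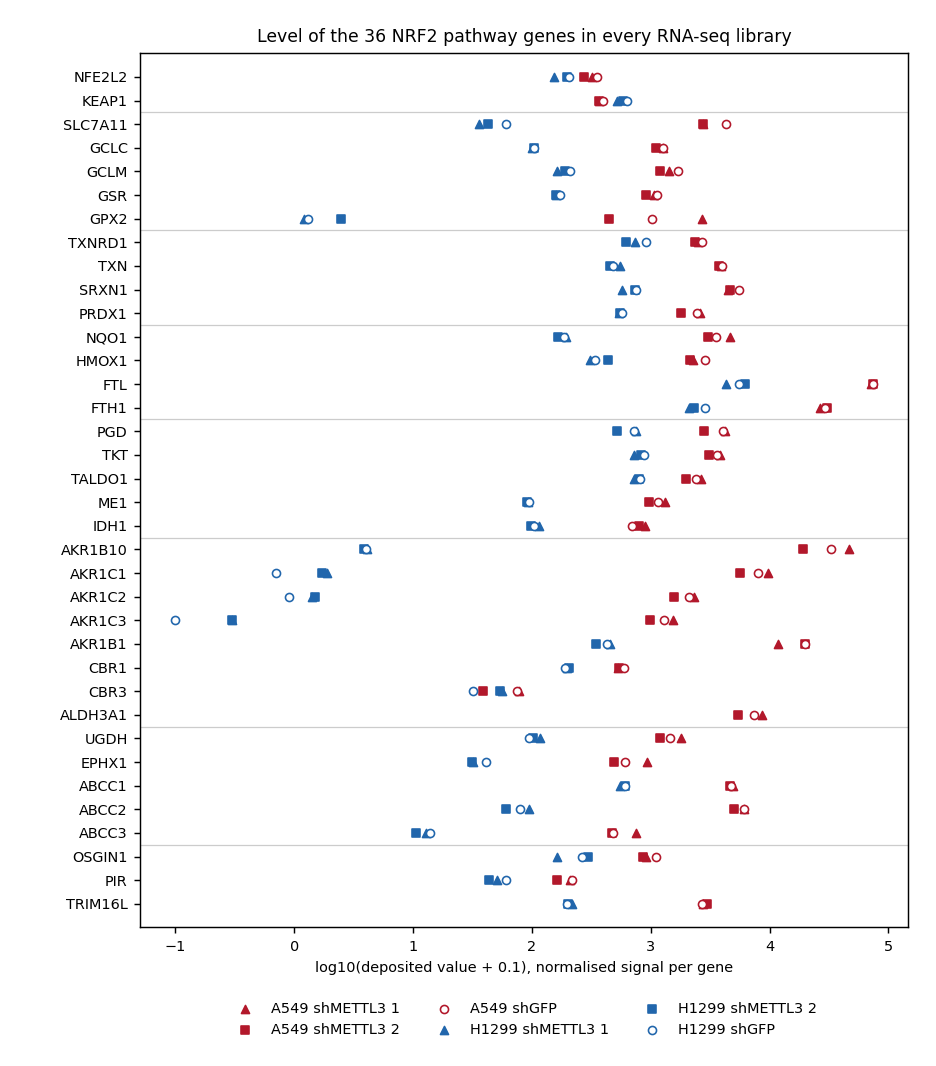
Deposited value of each member in every library, as log10(value + 0.1), with genes down the page grouped by role. A549 libraries are red and H1299 libraries blue, triangles and squares are shMETTL3 1 and 2, and open circles are shGFP. AKR1B10, AKR1C1, AKR1C2, AKR1C3 and GPX2 lie near or below 0 in H1299, KEAP1 is the member with its A549 points left of its H1299 points, and ALDH3A1 has no H1299 points.

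Both regulators lay outside the 2-fold rule. NFE2L2 stood at 320, 273 and 356 in A549 (shMETTL3 1, shMETTL3 2 and shGFP) and at 154, 198 and 206 in H1299. After scaling, the lowest A549 library was 1.02 times the highest H1299 library, so the lines did not overlap but nearly touched. KEAP1 was the member that ran the other way, at 368, 365 and 400 in A549 and 522, 587 and 632 in H1299. Its lowest H1299 library was 1.68 times its highest A549 library.

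The glutathione genes were all past the 2-fold rule. SLC7A11, the cystine importer that feeds glutathione synthesis, stood at 2758, 2737 and 4265 in A549 and at 35.8, 42.6 and 61 in H1299, and the lowest A549 library was 34.6 times the highest H1299 library. GCLC and GCLM, the catalytic and modifier subunits of glutamate-cysteine ligase, had corresponding lowest ratios of 7.96 and 4.40. GSR, which reduces oxidised glutathione, had 4.14. GPX2, a glutathione peroxidase of epithelia, stood at 2697, 449 and 1033 in A549 and at 1.1, 2.4 and 1.2 in H1299. Its A549 libraries differed among themselves by more than those of SLC7A11. The lowest was 138 times the highest H1299 library, but its H1299 mean was 0.40 on the scaled level, below the minimum of 1.

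In the thioredoxin system, TXN (thioredoxin), SRXN1 (sulfiredoxin, which repairs overoxidised peroxiredoxins) and PRDX1 (a peroxiredoxin) passed the rule, with lowest ratios of 5.40, 4.46 and 2.40. TXNRD1, which reduces thioredoxin, was just outside it at 1.98, with 2507, 2352 and 2703 in A549 and 743, 619 and 916 in H1299. NQO1, a quinone reductase and a standard NRF2 readout, stood at 4607, 3010 and 3522 in A549 and at 193, 165 and 187 in H1299, a lowest ratio of 12.3. HMOX1, which breaks down heme, and the ferritin chains FTL and FTH1, which store iron, had lowest ratios of 3.62, 8.52 and 7.11.

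Among the genes that supply NADPH, ME1 (malic enzyme) and IDH1 (isocitrate dehydrogenase) had lowest ratios of 7.84 and 4.71. The pentose phosphate enzymes PGD and TKT had 3.00 and 2.71, and TALDO1, at 1.82, did not pass. The members just inside the rule were PIR (2.06) and OSGIN1 (2.12), and those just outside were TXNRD1 (1.98) and CBR1 (1.92).

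Among the carbonyl-reducing enzymes, 4 of the 7 listed in both tables averaged below 1 in H1299 on the scaled level. AKR1B10, an aldo-keto reductase, stood at 47006, 19279 and 33171 in A549 and at 4, 3.8 and 3.9 in H1299, and the lowest A549 library was 3745 times the highest H1299 library. AKR1C1 stood at 9788, 5589 and 8037 in A549 and at 1.8, 1.6 and 0.6 in H1299, and AKR1C2 at 2310, 1581 and 2092 in A549 and 1.3, 1.4 and 0.8 in H1299. The A549 and H1299 libraries were far apart for both genes. AKR1C3 was at 1531, 993 and 1296 in A549 and listed at 0.2, 0.2 and 0 in H1299, which allows no fold between the shGFP libraries. Its lowest A549 library was 3666 times its highest H1299 library, a ratio to a value near 0. These genes share long stretches of sequence with each other and with AKR1C4 and AKR1B15, and how reads were counted is not stated in the labels or files, so the split of reads among them is uncertain. AKR1C4 (794, 481 and 653 in A549, at most 0.2 in H1299) and AKR1B15 (4584, 1874 and 3223 in A549, at most 0.2 in H1299) were likewise high in A549 and at or near 0 in H1299.

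AKR1B1, which reduces glucose and aldehydes, was at 11665, 19722 and 19704 in A549 and 452, 349 and 425 in H1299. CBR1 and CBR3, carbonyl reductases, did not pass the rule. CBR3 stood at 77.5, 39.1 and 74.2 in A549 and at 56.2, 53.4 and 31.6 in H1299, and its lines overlapped. ALDH3A1, an aldehyde dehydrogenase, stood at 8584, 5403 and 7434 in A549. Of the conjugation and export genes, UGDH (which makes UDP-glucuronate) and EPHX1 (epoxide hydrolase) had lowest ratios of 8.17 and 9.21. The efflux pumps ABCC1, ABCC2 and ABCC3 had 5.66, 42.4 and 26.5. TRIM16L had 9.70; it is close in sequence to TRIM16, and reads may be split between them.

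**Figure D2:**
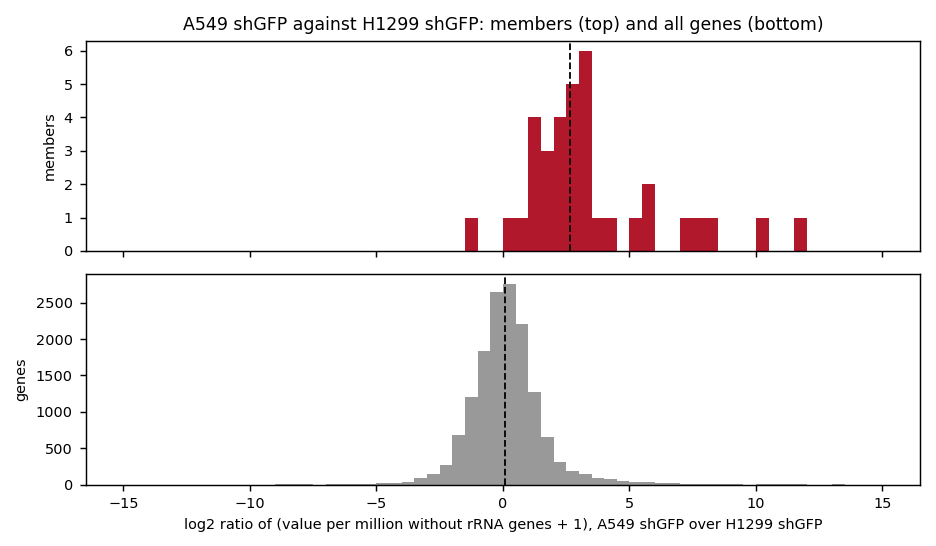
Histograms of the log2 ratio of A549 shGFP to H1299 shGFP, computed on the value scaled to the total without rRNA genes, plus 1, for the 35 members in both tables (top, number of members) and for all 14876 genes kept (bottom, number of genes). Dashed lines are medians, 2.65 for the members and 0.08 for all genes, and 1 member, KEAP1, lies left of 0.

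Genes linked to the pathway but not members were counted by the same rule, with the background of 15% higher and 12.7% lower. Of 24 NRF2 partners and regulators, 2 were at least 2-fold higher in every A549 library (CDKN1A and RXRA) and 2 lower (BACH2 and SMARCA4). BACH2 was low in both lines, at 5.36, 1.25 and 3.16 in A549 and 9.3, 8 and 11.2 in H1299. Its lowest H1299 library was only 2.02 times its highest A549 library. SMARCA4, a chromatin remodeller, stood at 21.1, 21.9 and 24.2 in A549 and at 47.8, 43.4 and 54.3 in H1299. Of 49 measured genes among 57 other antioxidant and NRF2-linked genes, 26 were higher and 3 lower (PGLS, GPX4 and TXNRD2). ALDH1A1, an aldehyde dehydrogenase, stood at 59078, 45092 and 56122 in A549 and was listed at 0, 0 and 0.2 in H1299. GPX4, which reduces lipid peroxides, ran the other way, at 229, 207 and 263 in A549 and 554, 447 and 510 in H1299. A list of 20 held relatives of the members and a few other genes, such as UGP2. Of its 16 measured genes, 3 were higher (CBR4, IDH2 and EPHX2) and 1 lower (ME3). Among the higher genes, ALDH1A1, AKR1C4, AKR1B15, CYP4F3, CYP4F11, CES1, KYNU, MGST2 and EPHX2 stood at 0.6 or below in every H1299 library. RXRA, GPX1 and SPP1, at 4.7 or below in H1299, also averaged below 1 there on the scaled level. All of these genes passed the minimum only through A549. No count with the minimum in each line was made for these lists.

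Knockdown of METTL3 gave no member a change that passed the test in either line. limma on log2(value + 1), with Benjamini-Hochberg adjustment over all genes and 0.05 as the threshold, called 0% of 17454 genes in A549 and 0% of 16470 in H1299. At an unadjusted p under 0.05 there were 115 genes in A549, 1 of them a member (SLC7A11), and 99 in H1299, 1 of them a member (CBR3). edgeR's quasi-likelihood test on the recovered A549 reads also called 0% of 16263 genes, with 111 at an unadjusted p under 0.05. METTL3 itself, at a log2 change of -1.26 (SE 0.19) in A549 and -1.28 (SE 0.25) in H1299, had an adjusted p of 1 in both limma fits. Each per-line fit had 1 residual degree of freedom, which came from the knockdown pair alone, with the single control taken to vary as much. limma then drew each gene's spread towards that of all genes of like level. The prior degrees of freedom were 3.53 in A549 and 4.44 in H1299, so the SEs rest largely on other genes.

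SLC7A11 had the smallest p of the members over both lines together. Its value in shMETTL3 libraries 1 and 2 was 64.7 and 64.2% of shGFP in A549 and 58.7 and 69.8% in H1299. All 4 knockdown libraries were below their control. On the log2 scale this was a change of -0.63 (SE 0.20) for A549, -0.63 (SE 0.29) for H1299 and -0.63 (SE 0.12, 95% interval -0.90 to -0.37) over both lines together, with a limma adjusted p of 0.999983 and an unadjusted p of 0.00061. The fit of both lines called 0% of 15546 genes, with 374 at an unadjusted p under 0.05. The other members under that unadjusted p were GCLM (-0.31, SE 0.12) and TXNRD1 (-0.29, SE 0.12). SLC3A2, the partner chain of SLC7A11 in the cystine transporter, stood at 1453 and 1186 in A549 shMETTL3, against 1770 in A549 shGFP, and at 168 and 170 in H1299 shMETTL3, against 199 in H1299 shGFP. It was singled out after its values were seen from a list of 57 linked genes, of which limma called 0. The list's median log2 change was -0.04 in A549 and 0.06 in H1299.

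Of the 34 members measured in both lines, 8 were below the control in all 4 knockdown libraries, against a background of 9.05% of 15544 genes. They were NFE2L2, KEAP1, SLC7A11, GCLM, GSR, TXNRD1, SRXN1 and PIR. Only TRIM16L was above it in all 4, against a background of 10.5%. GCLM stood at 1415 and 1203 in A549 shMETTL3, against 1683 in A549 shGFP, and at 164 and 190 in H1299 shMETTL3, against 211 in H1299 shGFP. NFE2L2 had log2 changes of -0.27 (SE 0.21) in A549 and -0.24 (SE 0.26) in H1299. KEAP1 had -0.13 (SE 0.19) in A549 and -0.19 (SE 0.20) in H1299. SRXN1 had -0.27 (SE 0.22) in A549 and -0.20 (SE 0.23) in H1299, and none of these passed the test.

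**Figure D3:**
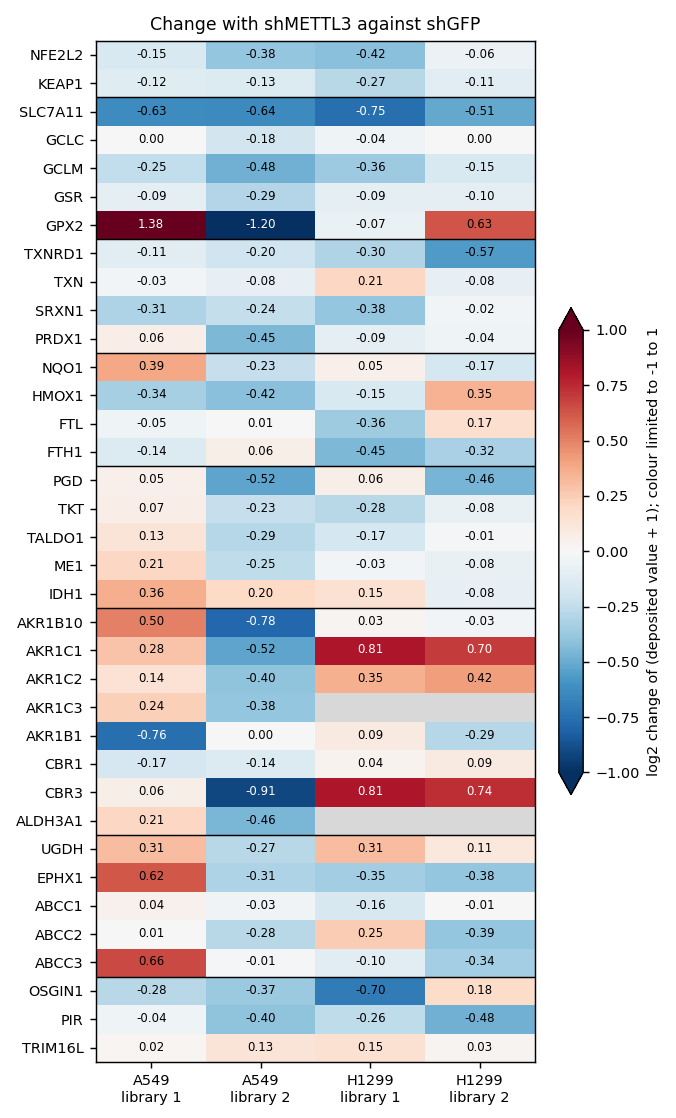
Log2 change of each member, computed as log2(value + 1) in a shMETTL3 library minus that in the shGFP library of the same line, in columns by line and library number and in rows by role. Blue is lower and red higher than shGFP, with colour limited at 1 on either side and grey for members not measured. The SLC7A11 row is blue in all 4 columns. The A549 columns differ in sign for 21 of the 36 members (backgrounds 24.9 and 20.5% for the 2 directions).

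In A549 the 2 knockdown libraries lay on opposite sides of the control for 21 of the 36 members, with the backgrounds of the 2 directions given below. Of the 36 members, 13 were lower than shGFP in both (background 27.2% of 17454 genes) and 2, IDH1 and TRIM16L, were higher in both (background 27.2%). A further 18 were above shGFP in library 1 and below it in library 2 (background 24.9%). The reverse held for 3, FTL, FTH1 and AKR1B1 (background 20.5%). Library 1 was above library 2 for 30 of the 36, against a background of 52.8%. The members' median log2 change was 0.03 in library 1 and -0.28 in library 2, and that of all genes 0.02 and -0.01. All 5 conjugation and export genes were among the 18, as were 4 of the 5 NADPH genes and 6 of the 8 carbonyl enzymes. Fewer came from the glutathione (1 of 5), thioredoxin (1 of 4) and quinone, heme and iron (1 of 4) groups. None of the 2 regulators or 3 other targets was among them. The count is of direction alone: ABCC1 was at 103 and 97.7% of shGFP, ABCC2 at 100.5% in library 1 and ABCC3 at 99.1% in library 2.

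GPX2 was the widest of these, at 261% of shGFP in library 1 and 43.5% in library 2, and its log2 change over both was 0.09 (SE 1.07). AKR1B10 was at 142% in library 1 and 58.1% in library 2 (-0.14, SE 0.60), and NQO1 at 131% and 85.5% (0.08, SE 0.32). CBR3 was at 104% and 52.6% (-0.42, SE 0.46). In each of these the control lay between the knockdown libraries. AKR1B1 ran the other way, at 59.2% in library 1 and 100.1% in library 2 (-0.38, SE 0.41). Library 1 also stood apart elsewhere: 561 of the 17454 genes were at least 2-fold from both other A549 libraries, against 305 for library 2. The epithelial marker KRT19 stood at 1396 and 427 in A549 shMETTL3, against 422 in A549 shGFP, and FN1 (fibronectin) at 5894 and 532, against 882. Over the whole epithelial list, all 10 genes of which were listed, the sum was 26734 and 18543 in A549 shMETTL3, against 19124 in A549 shGFP, where 2 of the 10 were at 0. Most of that sum was KRT8 (12213 and 8420, against 8906) and KRT18 (11824 and 8957, against 8964). EPCAM, CDH1 and ABCA3 were also higher in library 1 than in library 2. SFTPB (5.71 and 8.13, against 11.58) and NAPSA (5.71 and 7.19, against 7.11) ran the other way. The mesenchymal list, all 3 genes of which were above 0, summed to 13115 and 8238 in A549 shMETTL3, against 8644 in A549 shGFP, but in it only FN1 was higher in library 1 than in library 2: VIM stood at 6975 and 7439 in A549 shMETTL3, against 7562 in A549 shGFP, and CDH2 at 246 and 268, against 200. The part of these in the members' differences was not tested.

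The members with the lower values in both A549 knockdown libraries included HMOX1 (-0.38, SE 0.20), GCLM (-0.37, SE 0.21), OSGIN1, an oxidative stress-induced growth inhibitor (-0.33, SE 0.19), and TXNRD1 (-0.15, SE 0.20). IDH1 stood at 895 and 801 in shMETTL3, against 697 in shGFP (0.28, SE 0.20). None passed the test.

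In H1299, 16 of 34 members were lower than shGFP in both knockdown libraries (background 24.5% of 16470 genes) and 6 were higher in both (background 30.6%). The members' median was -0.09 in library 1 and -0.07 in library 2, with 0.09 and -0.04 for all genes. CBR3 stood at 56.2 and 53.4 in shMETTL3, against 31.6 in shGFP, a log2 change of 0.77 (SE 0.27). TXNRD1 (-0.43, SE 0.21) and FTH1 (-0.39, SE 0.17) were lower in both. OSGIN1 stood at 161 and 297 in shMETTL3, against 262 in shGFP, so that the control lay between them (-0.26, SE 0.39). AKR1C1, AKR1C2 and UGDH were also higher in both, but the first 2 stood at 1.8 or below in every library.

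No gene passed the test for a knockdown change that differed between the lines. The interaction term called 0% of 15546 genes, with 49 at an unadjusted p under 0.05, none of them a member. CBR3 had the smallest p of the members, with a log2 difference of -1.20 (SE 0.57, 95% interval -2.56 to 0.16, adjusted p 0.999956). For SLC7A11 the difference was 0.00 (SE 0.28, 95% interval -0.67 to 0.66). These intervals are wide, so neither likeness nor difference between the lines was shown.

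Libraries 1 and 2 were also compared over the 4 knockdown libraries with line as a term. limma called 1.56% of 15550 genes, 188 higher and 54 lower in library 1, and no member. This fit had 1 residual degree of freedom and 14.4 prior degrees of freedom, so its SEs and p-values rest largely on other genes. With median centring or without the intensity trend it called 0 genes. At an unadjusted p under 0.05 there were 9 of 34 members, against 13.7% of all genes, and 2 members with median centring or 1 without the trend. The smallest adjusted p of a member was 0.0761, for PGD, which was higher in library 1 (log2 difference 0.55, SE 0.15). PGD stood at 4195 in library 1 and 2822 in library 2 of A549, and at 746 and 521 in H1299. In H1299, 17 of 34 members were above in library 1, against a background of 64.9%. Over the 34 members, the difference between libraries 1 and 2 in A549 had a correlation of -0.12 with that in H1299, a description over genes that share their libraries. GPX2, at 2.58 in A549, was at -0.70 in H1299, where its values were 1.1 and 2.4.

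**Figure D4:**
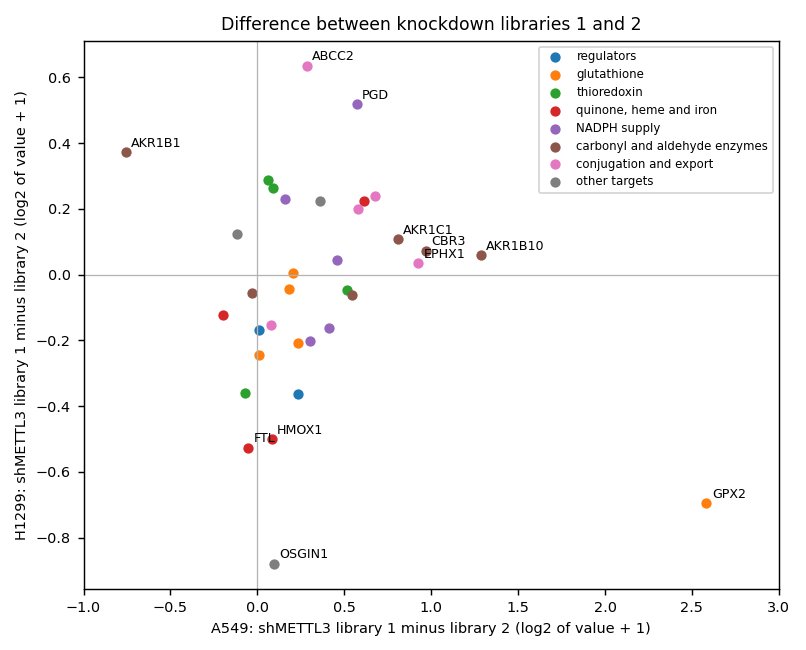
Difference between shMETTL3 libraries 1 and 2, as log2(value + 1) in library 1 minus library 2, in A549 (horizontal) and H1299 (vertical), with 1 point for each of 34 members coloured by role. Most points lie right of 0 in A549, and they spread on both sides of 0 in H1299, where 17 are above.

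None of the linked lists held a gene that passed the knockdown test in either line. For the 24 partners and regulators, the median log2 change was -0.03 in A549 and -0.16 in H1299. For the other antioxidant and NRF2-linked genes, it was -0.04 over 54 genes in A549 and 0.06 over 42 genes in H1299. For the list of relatives and a few other genes, it was 0.08 over 17 genes in A549 and -0.11 over 16 genes in H1299. UGP2, in the last list, makes UDP-glucose, the substrate of UGDH, and is not of a member's family. It was the 1 gene of that list called between libraries 1 and 2 (log2 difference 1.17, SE 0.17, limma adjusted p 0.00224). This call, like all others of that comparison, was lost with median centring and without the intensity trend.

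The promoter windows of the members were searched for TGACNNNGC, the core of the antioxidant response element, on both strands. RefSeq windows on GRCh38.p14, running from 250 bases before to 50 bases after a gene's start, were at hand for 25 members, in 33 windows. The motif was in windows of 10 of the 25 members (40%), against 16.1% of 27305 genes, and in 33.3% of the 33 windows, against 13.3% of 35116. The other 11 members were SLC7A11, PRDX1, GSR, HMOX1, FTH1, AKR1B10, CBR3, ALDH3A1, ABCC1, ABCC3 and TRIM16L. The 10 were CBR1, EPHX1, GCLM, GPX2, IDH1, KEAP1, ME1, PGD, PIR and TXNRD1. The stricter TGACTCAGC, which the first motif contains, was in 2 of the 25 (8%, against 0.689% of genes). TGACNNAGC, also contained in it, was in 6 (24%, against 4.70%). The matches are descriptions of the letters and not sites shown to bind NRF2. The following stretches are those of the 5 members that held TGACNNAGC wholly before the start, each written 5′ to 3′ so that the motif, in capitals, reads forward, with the strand it was read from. They are shown because GCLM, GPX2, ME1 and TXNRD1 belong to the glutathione, thioredoxin and NADPH groups above and KEAP1 is the inhibitor.
GCLM, chr1:93909436-93909484, plus strand: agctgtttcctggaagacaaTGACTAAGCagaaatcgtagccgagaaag
GPX2, chr14:64942839-64942887, plus strand: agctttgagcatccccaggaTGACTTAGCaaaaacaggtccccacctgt
KEAP1, chr19:10502774-10502822, plus strand: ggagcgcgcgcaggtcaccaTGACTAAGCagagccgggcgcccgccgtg
ME1, chr6:83431160-83431208, minus strand: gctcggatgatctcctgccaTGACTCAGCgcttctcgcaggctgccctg
TXNRD1, chr12:104286910-104286958, minus strand: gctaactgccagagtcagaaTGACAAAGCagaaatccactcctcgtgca

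GCLM and KEAP1 held the same 9 letters, TGACTAAGC, and ME1 and PIR shared TGACTCAGC. Of the 10 members with a match, GCLM, GPX2, ME1, IDH1, PGD, EPHX1 and PIR were past the 2-fold rule, and KEAP1, TXNRD1 and CBR1 were not.

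**Figure D5:**
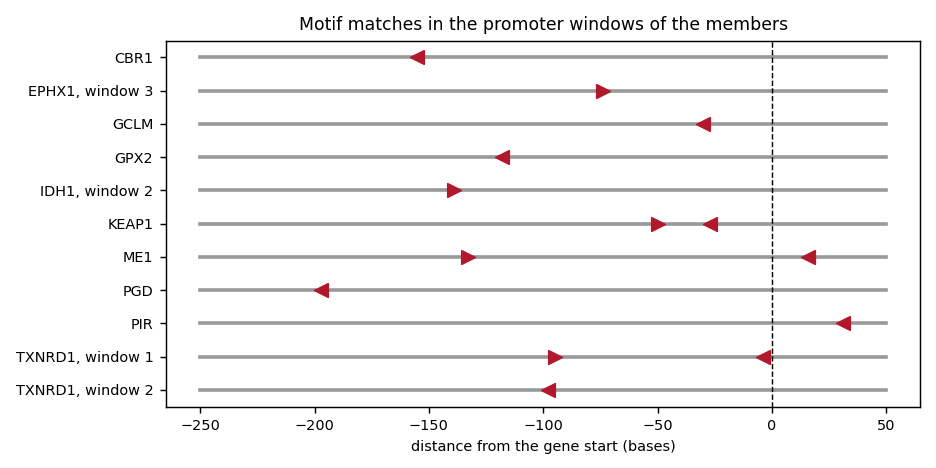
Position of each TGACNNNGC match in the promoter windows that hold one, as distance from the gene start in bases, with grey lines for the windows and the dashed line at the start. Triangles pointing right lie on the gene's strand and those pointing left on the other strand. Of the 11 windows, KEAP1, ME1 and TXNRD1 window 1 hold 2 matches each.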

How the data were processed

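RNA from 6 libraries of A549 and H1299 cells was used. Per the submitters' processing notes, TopHat, Bowtie and the hg19 build were used; the read counter, the gene annotation and any use of strand are not given in the sources read here. The authors deposited a normalised signal per gene, with 1 decimal in H1299 and 2 in A549. In A549, 100% of values were whole reads divided by 1 factor per library (2.8, 3.2 and 3.8 for shMETTL3 1, shMETTL3 2 and shGFP). The A549 knockdown columns are headed shMEL with the numbers 1 and 2, and were matched by number to the only A549 knockdown samples. Of the gene names, 27 (A549) and 25 (H1299) had been turned into dates, none of them a member.

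limma 3.58.1 in R 4.3.3 (eBayes with an intensity trend) tested log2(value + 1) for genes with a mean of at least 1, adjusted over all genes; fold changes on this scale understate those of low genes. Fits covered each line, both lines, the interaction, and library 1 against 2. edgeR 4.0.16 on the recovered A549 reads was an alternative and called 0 genes. The code was tested on simulated data. Levels between lines followed a 2-fold rule on values scaled to each library's total without rRNA genes. The design named an m6A peak comparison, which was not analysed here because no annotation of the hg19 build was used. The members, the gene lists and the tests were chosen with earlier results of these data known. The named genes are the members, METTL3 and genes of 3 linked lists. UGP2, the list genes given with values and the markers KRT19 and FN1 were singled out after their values were seen.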

Additional observations from a re-analysis of the deposited data

How the results depend on the processing

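Each knockdown comparison kept 0 called members under a pseudocount of 0.1, a mean of at least 5, median centring, no intensity trend and, where run, no filter, a single fit of all 6 libraries, edgeR on A549 reads, and leaving out each shMETTL3 library (0 to 0). Libraries 1 and 2 lay on opposite sides of the control for 21 of 36 members in A549 and 12 of 34 in H1299. In A549 the backgrounds of the 2 directions were 24.9 and 20.5% of 17454 genes. In H1299, 7 members had library 1 above and library 2 below the control (background 30.3% of 16470 genes), and 5 the reverse (background 12.4%). Leaving out 1 library therefore turned many changes. Among the members with an estimate in the text these were in A549, GPX2 (-1.20 to 1.38), AKR1B10 (-0.78 to 0.50), NQO1 (-0.23 to 0.39), CBR3 (-0.91 to 0.062) and AKR1B1 (-0.76 to 0.0014), and in H1299, OSGIN1 (-0.70 to 0.18). The members' A549 median was -0.28 without library 1 and 0.01 without library 2.

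Members higher in A549 by the level rule numbered 32 with a 1.5-fold rule (background 23.4%) and 23 with a 4-fold rule (6.71%). On the shGFP libraries alone they numbered 32 (23.2%), and with 1 library left out 29 to 31 (15.6 to 17.3%). They numbered 24 with the minimum in each line (11.2%), added after seeing the data. KEAP1 was lower in A549 by the 1.5-fold rule, on the shGFP libraries alone (0.48 of H1299) and without H1299 shMETTL3 library 1. The motif count was 2 members for TGACTCAGC and 6 for TGACNNAGC in place of 10; the stricter motifs are by construction subsets. Genes called between libraries 1 and 2 numbered 242, against 142 with a pseudocount of 0.1, 386 at a mean of at least 5, 0 with median centring (1971 at an unadjusted p under 0.05) and 0 without the intensity trend (1767); the cause was not tested.

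What a shared number stands for is not in the labels, and 2 pairs do not settle it; number 1 minus number 2 correlated at 0.24 between the lines over 15546 genes. With a replicate block, limma over both lines called 0 members and 1 gene, METTL3 (log2 change -1.27), and the interaction called 0. With 1 control library a line, a change that was not called is not shown to be absent. edgeR for H1299, both lines, the interaction and the library numbers was not run, nor were the m6A peak alternatives.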
